A study of Bos taurus with 40 samples.

Results

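The genes described here are 146 liver-enriched genes of cattle that were also listed in skeletal muscle. A gene was a member if it was listed in both the 10 bull liver and the 10 heifer muscle samples and its mean in bull liver was at least 8 times its mean in heifer muscle. This held for 146 of the 4493 genes listed in both, and 4 identifiers set aside by the rule were not analysed here. The members were chosen by their measured CPM in these samples, so the liver level in bulls, the muscle level in heifers and their ratio are given as a description of the members, without a test.

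The liver synthesises most plasma proteins, and a few transcripts for secreted proteins make up a large part of hepatic mRNA. Skeletal muscle is built of contractile fibres and makes few of these proteins. Genes that are high in liver and still measurable in muscle can include both abundant hepatic transcripts and genes that many cells use. An example of the latter is *HSPA5*, which codes for a chaperone of the endoplasmic reticulum that helps secreted proteins fold.

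The study used purebred Simmental cattle, bulls and heifers, that ranked high or low on residual feed intake (RFI). An animal of low RFI eats less than its weight and growth predict and is feed efficient. Animals were bred from parents ranked on RFI, housed at about 15 months of age on a concentrate diet, and biopsied in liver and in *M. longissimus thoracis et lumborum* at the end of the test period. There were 5 high and 5 low RFI samples for each of bull liver, bull muscle, heifer liver and heifer muscle, 40 in all. The labels name no drug treatment and no engineered allele, and biopsies were taken under local anaesthetic. Values are CPM, the reads on a gene scaled to a common total of reads per sample, and are not divided by gene length. Samples are named by the animal tags of the labels.

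The depth was 2368340 to 60929308 reads per sample (median 19749118.5). At the lowest depth, that of low RFI bull liver 2713, 1 read was worth 0.422 CPM, while the lowest mean of a member was 69.6 CPM in bull liver and 7.88 CPM in heifer muscle. The libraries labelled heifer liver 2728 (high RFI), L58 and L16 (low RFI) stood apart from the other 7 heifer livers, and those labelled bull muscle M12 (high RFI), M6, 2712 and M74 (low RFI) stood apart from the other 6 bull muscles. They were left out of the comparisons and are described separately. This left 4 high and 3 low RFI heifer livers, and 4 high and 2 low RFI bull muscles. Every tag was taken as a separate animal within its tissue. In a biopsy, fewer cells of a type and less RNA per cell cannot be told apart.

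The ratio of bull liver to heifer muscle ran from 8.02 to 1604 with a median of 14.2. It was 8 to 16 in 79 genes, 16 to 32 in 34, 32 to 100 in 22, 100 to 1000 in 8, and at least 1000 in 3. The last inside the limit was ENSBTAG00000021771, with a ratio of 8.02 (112.7 CPM in bull liver, 14.1 CPM in heifer muscle). The first outside it was ENSBTAG00000018084, with a ratio of 7.99 (86.1 and 10.8 CPM). The classes differed in their liver level far more than in their muscle level. The median bull liver level rose from 200 CPM in the class of 8 to 16, over 358, 679 and 3140 CPM, to 31803 CPM in the class of at least 1000, whereas the median heifer muscle level of the 5 classes stayed between 12.8 and 24.8 CPM. The files pair no identifier with a gene name. Of the members, *HSPA5* (ENSBTAG00000007662) alone could be named, with a ratio of 8.26 close to the limit.

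Together the 146 genes took 25.4% ± 1.26 (SD, n = 10) of the reads in bull liver, from 24.0% in low RFI bull 2712 to 27.5% in high RFI bull 2641. In the 7 heifer livers they took 26.1% ± 0.971 (SD, n = 7), within 24.5 to 27.5%. The share was similar in the RFI groups of both sexes. It was 25.1% ± 1.38 in high and 25.6% ± 1.26 in low RFI bulls (n = 5 each), and 25.7% ± 0.827 in high (n = 4) and 26.6% ± 1.09 in low RFI heifers (n = 3), and the groups overlapped. In heifer muscle the share was 0.422% ± 0.0637 (SD, n = 10), and in the 6 bull muscles it was 0.462% ± 0.108. In heifer muscle the RFI groups lay further apart relative to their spread. The share there was 0.461% ± 0.0558 in high and 0.383% ± 0.0467 in low RFI animals (SD, n = 5 each), and the ranges, 0.397 to 0.522% and 0.338 to 0.449%, overlapped. These shares are of all counted reads, and on that scale the median difference between low and high RFI in heifer muscle was -0.29 (log2) over the members and -0.24 over all genes. In bull muscle the share was 0.474% ± 0.114 in high (n = 4) and 0.439% ± 0.132 in low RFI animals (n = 2).

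**Figure D1:**
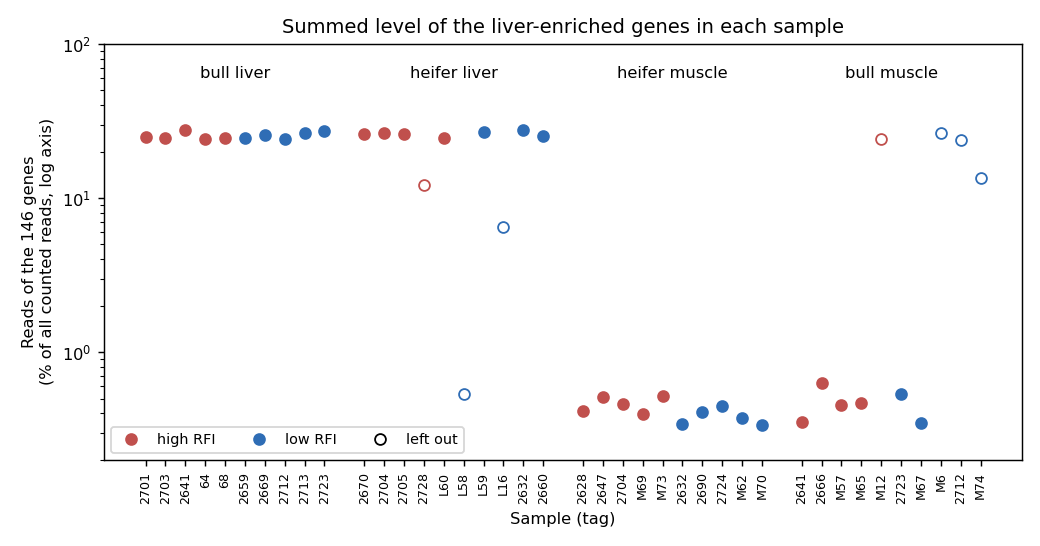
Reads of the 146 liver-enriched genes as a percentage of all counted reads (log axis) in each of the 40 samples, coloured by RFI group, with open circles for the 7 libraries left out of the comparisons. The 17 kept livers lie within 24.0 to 27.5%, the 16 kept muscles lie between 0.338 and 0.626%, and the open circles spread from 0.535 to 26.6%.

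4 genes carried most of this sum, 56.6 to 67.1% of it in bull liver and 57.7 to 63.6% in heifer liver. ENSBTAG00000017121 was the most abundant. Its level in high RFI bull liver was 71222, 60924, 95989, 55848 and 73176 CPM, and in low RFI bull liver 62059, 70511, 63976, 81414 and 86734 CPM. The 2 groups of bulls covered much the same range. In heifer liver it was 80519, 74256, 82536 and 87595 CPM in high and 92434, 94728 and 87394 CPM in low RFI animals, where 2660, the lowest of the low RFI heifers, lay just under the highest high RFI heifer in CPM. On the scaled log2 values the groups of heifers stayed apart.

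ENSBTAG00000007273 followed with 31803 CPM in bull and 27827 CPM in heifer liver, and ENSBTAG00000017280 with 28628 and 32125 CPM. ENSBTAG00000022120 had 22932 ± 5328 CPM in bull liver (SD, n = 10) and 13481 ± 2799 CPM in heifer liver (SD, n = 7). It had the lowest muscle level of the 4, 14.3 CPM in heifer muscle, and so the highest ratio of any member. The other 142 genes together took 9.80% ± 0.501 of the reads in bull liver and 10.2% ± 0.640 in heifer liver.

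Whether the genes were liver-enriched beyond the samples that chose them was tested in the 7 heifer livers against the 6 bull muscles, which the rule did not use. All of these livers came from heifers and all of these muscles from bulls, so tissue and sex cannot be told apart here. No tag was shared between these 2 groups, although 2 of the heifers also gave a heifer muscle sample and 2 of the bulls a bull liver sample. Of the 146 genes, 145 were listed in bull muscle, and ENSBTAG00000010015 was not. All 145 were higher in liver (limma on log2(CPM + 1) with RFI as a covariate, Benjamini-Hochberg adjusted p of at most 2.51e-06), against 38.3% of the 5112 genes tested. The median difference was 3.67 on the log2 scale, a fold of 12.7, and the median over all genes was -0.01.

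In every one of the 145 genes, each of the 7 livers lay above each of the 6 muscles, which held for 29.9% of all genes. The libraries left out of both groups had been set apart by their tissue profile in earlier results of these data. Leaving them out favoured this separation and the calls above. A call with a fitted difference of over 8 times was made in 114 of the 145 genes, and in 4.79% of all genes. In mean CPM, 129 of the 145 genes were again at least 8 times higher in liver. The 16 below this limit all came from the class of 8 to 16, where 62 of 78 reached it, and the order of the classes was the same, with median ratios of 11.6, 21.8, 48.1, 161 and 305.

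The smallest ratio was that of *HSPA5*, with 221 ± 71.9 CPM in heifer liver and 47.0 ± 8.42 CPM in bull muscle, a fitted difference of 1.96 ± 0.14 (SE) on the log2 scale. The largest was that of ENSBTAG00000017121, with 85637 CPM in heifer liver and 231 CPM in bull muscle and a fitted difference of 9.40 ± 0.65 (SE). Its level in the 6 muscles ranged from 24.3 to 739 CPM, and its SE was the larger of the 2. With all 20 samples under their labels, 100 of the 145 genes were called, all of them higher in liver.

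**Figure D2:**
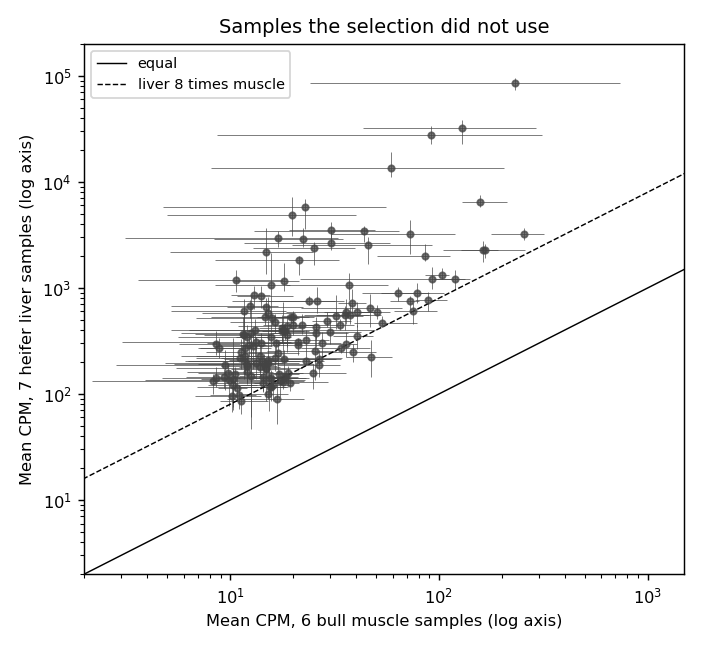
Mean CPM of 145 liver-enriched genes in the 7 heifer livers (vertical, log axis) against the 6 bull muscles (horizontal, log axis), with bars from the lowest to the highest sample, a solid line at equal levels and a dashed line at 8 times. All points lie above the solid line, 129 lie on or above the dashed line, and the most abundant genes have the widest bars in muscle.

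Levels within liver were much alike in the sexes. Across the 146 genes, the log10 mean levels of bull and heifer liver had a Pearson r of 0.984, given as a description over genes that share their libraries. The ratio of heifer to bull liver had a median of 1.02, and was within 1.5 times either way in 138 genes. Of the 5 genes more than 2 times apart, 3 were higher in heifers and 2 in bulls. ENSBTAG00000016472 had 581 CPM in heifers and 246 CPM in bulls, ENSBTAG00000037673 had 305 and 130 CPM, and ENSBTAG00000015505 had 1071 and 460 CPM. *HSPA5* had 221 CPM in heifers and 462 CPM in bulls, and ENSBTAG00000011839 had 373 and 794 CPM. For *HSPA5* the high RFI animals were alike, with 192 to 363 CPM in bulls and 192 to 326 CPM in heifers. Its gap lay in low RFI animals, with 298 to 1031 CPM in bulls and 145 to 191 CPM in heifers. ENSBTAG00000011839 had means of 497 CPM in bulls and 355 CPM in heifers of high RFI, and of 1091 and 396 CPM in those of low RFI. Since bull liver was part of the rule, the differences between the sexes were not tested.

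All 5 were among the most variable members. The coefficient of variation over the 10 bull livers had a median of 14.8%, with 76 of the 146 genes under 15% and 4 over 50%. The 1541 genes listed in bull liver at or above the level of the lowest member had a median of 15.1%. In the 7 heifer livers the members' median was 15.9%, against 16.8% for the genes at that level. The steadiest was ENSBTAG00000007152, with a coefficient of 6.58% around 422 CPM in bull liver. At the other end were ENSBTAG00000015505 (73.8%), ENSBTAG00000011839 (61.5%), *HSPA5* (60.3%) and ENSBTAG00000016472 (59.3%). Genes that varied among bulls also tended to vary among heifers, with a Spearman rho of 0.567 between the coefficients, again as a description over genes.

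ENSBTAG00000015505 was 348, 219, 343, 84.6 and 1145 CPM in high RFI and 104, 754, 332, 796 and 473 CPM in low RFI bull liver. The lowest and the highest of the 10 bulls, 64 and 68, were both in the high RFI group. In heifer liver it was 806, 830, 385 and 750 CPM in high RFI and 2132, 974 and 1621 CPM in low RFI animals, with every low RFI heifer above every high RFI heifer.

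Some of the variable genes moved together. Among the 45 pairs of the 10 most variable members in bull liver, 3 had a Pearson r of 0.8 or more, and these 3 were then tested in the 7 heifer livers, which had no part in choosing them. ENSBTAG00000011839 and ENSBTAG00000016465 had r = 0.892 in bulls. In heifers r was 0.916 (exact permutation p = 0.00159, adjusted over the 3 pairs 0.00476) and Spearman rho was 0.893 (exact permutation p = 0.0123, adjusted 0.0369). Without the 2 heifers farthest from the median, r was 0.908. Heifer L59 was highest for both genes (842 and 321 CPM) and heifer 2632 was lowest for both (47.2 and 60.5 CPM).

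*HSPA5* and ENSBTAG00000003362 had r = 0.919 in bulls. In heifers r was 0.720 (exact permutation p = 0.0659, adjusted 0.0988), rho was 0.75 (exact permutation p = 0.0663, adjusted 0.0994), and r fell to 0.411 without the 2 farthest heifers. The r in heifers depended on those animals, and the value without them was not tested. ENSBTAG00000016472 and ENSBTAG00000037673 had the highest r in bulls, 0.949, but in heifers r was -0.221 (exact permutation p = 0.703) and rho 0.0714 (exact permutation p = 0.906, the same after adjustment). Heifer 2632 had the lowest level of the first gene, 168 CPM, and the highest of the second, 380 CPM. Without the 2 farthest heifers r was 0.877, so the r in heifers depended on those animals here too, and this value was not tested.

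The comparison of RFI groups asked whether hepatic expression differed with feed efficiency. The paper, with edgeR on counts at an adjusted p < 0.1, called genes in these bull livers, *HSPA5* among them. In the limma fit here, none of the 146 genes passed in bull liver. Neither did any of the 7363 genes tested (0% called, limma with Benjamini-Hochberg adjusted p < 0.1). At an unadjusted p < 0.05 there were 5 members, 3.42% of them, against 555 genes or 7.54% of all. The differences between low and high RFI were centred on 0, with a median of 0.01 on the log2 scale, 77 genes above and 69 below, and 140 of them under 0.5 in size. The median SE was 0.14 on the log2 scale. In no member did the 2 groups of bulls stay apart, which they did in 1.01% of all genes.

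*HSPA5* had the smallest p among the members in bulls. It was 363, 192, 277, 249 and 243 CPM in high RFI and 537, 680, 1031, 298 and 749 CPM in low RFI bull liver. Among the efficient bulls, 2713 alone, at 298 CPM, was below the highest inefficient bull. The means were 265 ± 63.0 and 659 ± 270 CPM (SD, n = 5 each), and the difference was 1.28 ± 0.29 (SE) on the log2 scale, with an adjusted p of 0.643 by limma. *HSPA5* met the limit of 8 times only through the low RFI bulls, with a ratio to heifer muscle of 11.8 in low and 4.74 in high RFI bulls, so its choice as a member favoured this difference, which is given as a description and is no support for one. Bull 2713 had the lowest depth of the series and was also the low RFI bull that lay within the high RFI range. Without it, *HSPA5* alone among the members passed, at 1.56 on the log2 scale and an adjusted p of 0.0345 by limma. That fit uses the bull values that favoured the choice of *HSPA5*, so it is no support either. The adjusted p ran up to 0.953 under the other settings. Of the 146 genes, 140 reached 8 times in both RFI groups of bulls, 3 in low RFI bulls only (*HSPA5*, ENSBTAG00000002549 and ENSBTAG00000004269) and 3 in high RFI bulls only (ENSBTAG00000031941, ENSBTAG00000004131 and ENSBTAG00000021771), and the same limit holds for the bull values of each of the 6.

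ENSBTAG00000011839 was next, with 845, 288, 624, 493.1 and 237 CPM in high RFI and 633, 1254, 839, 830 and 1898 CPM in low RFI bull liver. Bulls 2701 and 2641 of the high RFI group lay within the range of the low RFI group or close under it. The difference was 1.23 ± 0.37 (SE) on the log2 scale, with an adjusted p of 0.643 by limma. The members lower in low RFI bulls had larger p. ENSBTAG00000031941 had means of 122 ± 21.9 CPM (high RFI) and 91.3 ± 21.6 CPM (low RFI), each with its SD over 5 bulls, and a difference of -0.37 ± 0.17 (SE) on the log2 scale, with an adjusted p of 0.657 by limma. ENSBTAG00000033221 had 1810 ± 449 and 1217 ± 499 CPM, a difference of -0.60 ± 0.29 (SE).

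In heifer liver, again none of the members and none of 7231 genes passed (0% called by limma). At an unadjusted p < 0.05 there were 5 members (3.42%) and 181 genes (2.5%). The median difference over the members was 0.00 on the log2 scale, with 73 genes above and 73 below 0, and the median SE was 0.19. The 4 high and 3 low RFI heifers did not overlap on the log2 scale in 10 of the 146 genes, 6.85%, against 3.84% of all genes, and 5 of the 10 were higher in low RFI.

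ENSBTAG00000018137 had the smallest p in heifers. It was 259, 217, 262 and 301 CPM in high RFI and 608, 416 and 745 CPM in low RFI heifer liver, so the groups stayed apart. The difference was 1.22 ± 0.19 (SE) on the log2 scale, with an adjusted p of 0.832 by limma. An exact permutation test gave p = 0.0571, the smallest that 4 against 3 allows, so a single gene could not reach 0.05. In bull liver the same gene was 249 to 874 CPM in high and 360 to 801 CPM in low RFI animals, and the groups overlapped throughout. ENSBTAG00000015505, given above, differed by 1.25 ± 0.32 (SE) on the log2 scale in heifers.

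On the lower side, ENSBTAG00000003718 was 223, 296, 253 and 294 CPM in high RFI and 157, 178 and 181 CPM in low RFI heifers, a difference of -0.55 ± 0.16 (SE) on the log2 scale. *HSPA5* was 311, 229, 192 and 326 CPM in high RFI and 191, 145 and 154 CPM in low RFI heifers, a difference of -0.59 ± 0.20 (SE). Its lowest high RFI heifer and its highest low RFI heifer were less than 1 CPM apart. The adjusted p of both was 1.00 by limma.

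**Figure D3:**
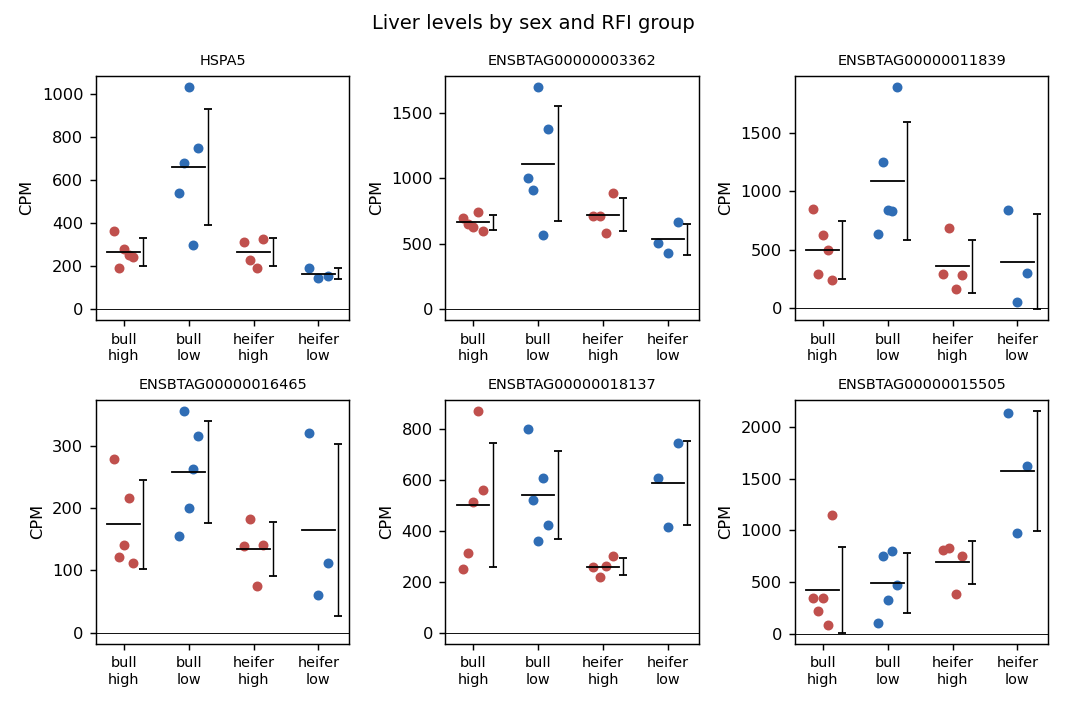
CPM of 6 liver-enriched genes in each kept liver sample, by sex and RFI group, with a line at the mean and a bar of ± 1 SD (n = 5, 5, 4 and 3 animals). In bulls, *HSPA5* and ENSBTAG00000003362 are higher in all low RFI animals but 2713, while in heifers ENSBTAG00000018137 and ENSBTAG00000015505 are higher in all 3 low RFI animals.

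Taking both sexes in a single fit with sex as a covariate (17 livers), none of the members and none of 7045 genes passed (0% called by limma). At an unadjusted p < 0.05 there were 8 members (5.48%) and 4.97% of all genes, and the members' median was 0.01 on the log2 scale. The smallest p among the members was that of ENSBTAG00000002549. It was 231, 239, 251, 282 and 255 CPM in high and 365, 300, 321, 266 and 311 CPM in low RFI bulls, and 231 ± 21.0 (n = 4) and 267 ± 46.3 CPM (n = 3) in the heifers. Its difference was 0.33 ± 0.09 (SE) on the log2 scale, with an adjusted p of 0.897 by limma. Its ratio to heifer muscle was 9.80 in low and 7.88 in high RFI bulls. ENSBTAG00000031941 had lower means in low RFI animals of both sexes and a difference of -0.34 ± 0.13 (SE), with the same adjusted p. Its ratio was 7.99 in low and 10.6 in high RFI bulls. Both genes met the limit of 8 times through a single RFI group of bulls, which favoured their differences in bulls. Their joint differences are therefore given as descriptions and are no support for a difference.

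Whether the RFI difference itself differed between the sexes was tested as an interaction, and none of the 146 genes or of all genes passed (0% called by limma). At an unadjusted p < 0.05 there were 8 members (5.48%) and 3.63% of all genes. *HSPA5* had the smallest p of the members, with a bull liver side that its choice as a member favoured, where the difference in heifers minus that in bulls was -1.87 ± 0.41 (SE) on the log2 scale (adjusted p = 0.909 by limma, 0.00921 to 1.00 over the alternatives). Without bull 2713 it was -2.15, with an adjusted p of 0.00921 by limma, and it was the 1 member called. ENSBTAG00000003718 followed with -0.77 ± 0.23 (SE) and an adjusted p of 0.959. The differences of the 146 genes in bulls and in heifers, which share no animals, had a Pearson r of -0.0205 across genes, and 70 of 146 (47.9%) had the same sign. Over all genes r was 0.0174, and 49.6% had the same sign.

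**Figure D4:**
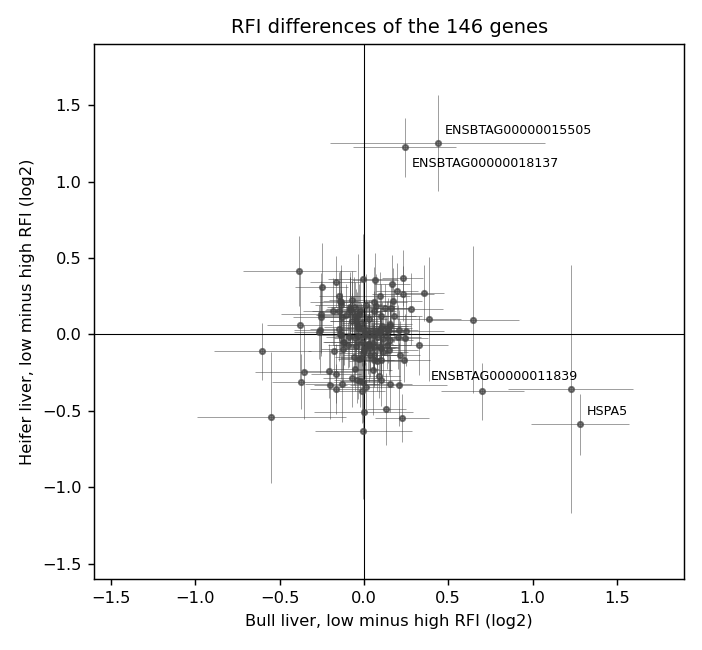
Difference between low and high RFI on the log2(CPM + 1) scale for each of the 146 genes in bull liver (horizontal, 5 against 5) and in heifer liver (vertical, 3 against 4), with bars of ± 1 SE from limma. Most points lie within 0.5 of 0 on both axes, *HSPA5* lies at 1.28 and -0.59, and ENSBTAG00000018137 and ENSBTAG00000015505 lie above 1.2 in heifers.

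The most abundant members showed little difference with RFI. In the 10 genes of highest mean, differences in bulls ran from -0.38 to 0.25 on the log2 scale with SEs of 0.12 to 0.22, and in heifers from -0.08 to 0.26 with SEs of 0.15 to 0.35. ENSBTAG00000017121 differed by 0.09 ± 0.18 (SE) in bulls and by 0.25 ± 0.16 (SE) in heifers.

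In heifer muscle, the paper called genes with edgeR on counts at an adjusted p < 0.1, none of them a member. In the limma fit here, none of the 146 genes and none of 5547 genes passed for RFI (0% called by limma). At an unadjusted p < 0.05 there were 5 members (3.42%), all lower in low RFI, and 1.64% of all genes, and in no member were the groups apart, against 0.361% of all genes. ENSBTAG00000012991 had the smallest p, with 14.9, 7.02, 13.8, 19.5 and 22.1 CPM in high and 4.28, 11.8, 6.04, 4.58 and 6.3 CPM in low RFI heifers. The difference was -0.87 ± 0.34 (SE) on the log2 scale, with an adjusted p of 0.999 by limma. The same gene differed by 0.08 in bull liver and by -0.02 in heifer liver.

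Variation across the muscles was larger in the classes of higher ratio. In heifer muscle the median coefficient of variation was 31.3% in the class of 8 to 16, then 34.7, 37.8 and 52.6%, and 86.3% in the 3 genes with a ratio of at least 1000 (ENSBTAG00000022120, ENSBTAG00000007273 and ENSBTAG00000017121). In the 6 bull muscles the values were 23.0, 25.8, 37.0, 62.5 and 132% in the same order. The 3 genes were high in the same samples. In bull muscle 2666 the 3 genes were at 0.896, 0.985 and 1.02% of their bull liver means, and in bull muscle 2723 at 0.383, 0.474 and 0.617%. The other 4 bull muscles had 0.0272 to 0.135%. Among heifer muscles, 2724 was highest for each of the 3, at 0.157, 0.244 and 0.268%, and 2704 next, at 0.0987 to 0.170%.

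ENSBTAG00000017280, with a ratio of 337, was also highest in bull muscle 2666. The median member was at 7.39% of its bull liver mean in bull muscle 2666 and at 7.19% in M65, where the 3 genes were at most at 0.0691%. Across the 10 heifer muscles, the r of a gene with the mean of these 3, given as a description over samples, had a median of 0.522 in the 8 genes with a ratio of 100 to 1000 (0.306 to 0.902), of 0.229 in the 22 genes of 32 to 100, and of 0.00 in the 113 genes under 32. Whether liver RNA had a part in the muscle values of the 3 genes was not tested.

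**Figure D5:**
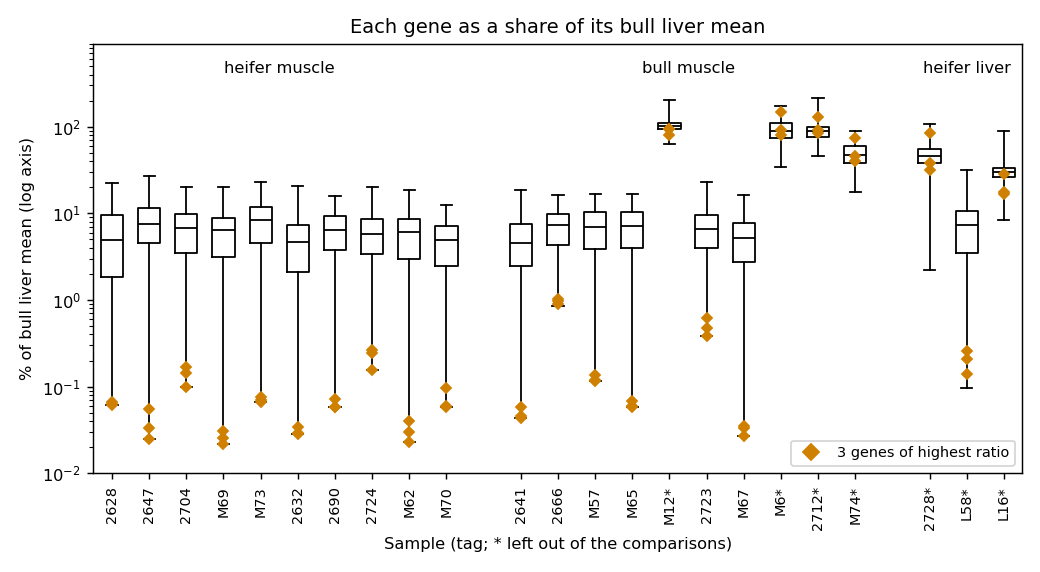
Each liver-enriched gene as a percentage of its bull liver mean (log axis) in the 10 heifer muscles, the 10 libraries labelled bull muscle and the 3 left-out heifer livers, as boxes (quartiles and median) with whiskers to the lowest and highest gene, and diamonds for the 3 genes of highest ratio. In the kept muscles the medians lie between 4.55 and 8.36% with the diamonds at 1.02% or less, while in M12, M6, 2712 and M74 the diamonds lie within 40.1 to 146%.

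The left-out libraries were compared with the kept livers gene by gene. In the library labelled bull muscle M12 the median member was at 101% of its bull liver mean, with 75 of 145 genes above 100%. It was at 88.7% in M6, at 88.9% in 2712 and at 47.5% in M74. In the libraries labelled heifer liver the median member was at 45.4% of the mean of the 7 kept heifer livers in 2728, at 29.0% in L16 and at 7.04% in L58. L58 had 186 CPM of ENSBTAG00000017121, within the 21.3 to 193 CPM of the heifer muscles.

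The members did not shift by a common factor in 2728. *HSPA5* was at 200% of the kept mean there (443 CPM), and 7 genes exceeded 100%, while ENSBTAG00000015505 was at 2.63% (28.1 CPM). ENSBTAG00000022120 was at 19459 CPM, above the 11190 to 19254 CPM of the kept heifers. In L16, *HSPA5* was again the highest member relative to the kept mean, at 59.4%, and ENSBTAG00000018137 the lowest, at 10.9%.

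How alike the members' profiles were in any 2 libraries was described by the SD, over genes, of the log2 difference between them, which a common factor does not change. Among the 45 pairs of bull livers it was 0.297 to 0.549, with a median of 0.416. The 2 libraries labelled bull muscle M6 and M74 had the most similar profiles of all, with an SD of 0.0793, although the median gene was 1.9 times higher in M6. The library labelled bull muscle 2712 was nearest to bull liver 2712, with an SD of 0.157, and the next nearest library stood at 0.385. M12 was nearest to bull liver 2669 (0.236), L16 to heifer liver 2670 (0.314), and L58 to heifer muscle 2724 (0.507). The nearest to 2728 was bull liver 2659, at 0.675.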

How the data were processed

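The authors isolated RNA from biopsies, sequenced mRNA libraries as single-end reads, aligned them with STAR 2.5.1 to UMD3.1, counted protein-coding genes with HTSeq 0.6.1p2 (versions from the submitters' processing notes), and tested counts with edgeR. The deposited values are CPM per sample, for part of the genes, and how genes were chosen for listing is not given in the sources used here. In the bull muscle files 1359 further rows repeat the liver values of bull 2723 and were dropped, as was 1 stray letter in a value. Since these rows belong to other samples, the deposited columns of bull muscle are CPM only above them.

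Depth was recovered as the number of equal steps in each sample's CPM (all values whole reads to within 0.000275). Counts were not tested. Samples were scaled with TMM factors, the weighted mean log ratio to a reference sample after trimming (30% of fold changes and 5% of expression values), 1 CPM was added, and log2 values were fitted with limma 3.58.1 (R 4.3.3, trended variance) over all listed genes, with Benjamini-Hochberg adjusted p < 0.1. A log2 difference on this scale understates changes of low genes. The filter of over 1 CPM in as many samples as the smaller group holds, at most 5, removed 0 genes. Nothing states that samples came from separate extractions, and p-values measure the spread between samples of different tags. Single genes were compared by exact two-sided permutation tests in Python 3.11.15 (numpy 2.4.6, pandas 2.3.3, scipy 1.17.1, plots with matplotlib 3.10.9). Scripts were tested on simulated data.

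The members, lists and left-out samples were chosen with earlier results of these data known. Genes named singly are those of smallest p in each comparison, highest level, ratio or variation, and those next to the limit, with at most 2 higher and 2 lower identifiers a comparison, since the identifiers could not be paired with names (*HSPA5* is paired with its name in the paper, which singled it out on these same samples). Pathway and cell type lists, held by gene name, were therefore not used here, nor were sequences.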

Additional observations from a re-analysis of the deposited data

Results flagged for a closer look

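Single samples were set apart by Dixon's criterion, the gap to the nearest other sample relative to the range of the group, in 11 of 84 groups of values. Chance gives about 1 in 20 for separate groups of unselected values. These genes were named partly for their variation or level and share samples, so the 11 are not read as an excess. Several of the 11 are the same sample. In high RFI bull muscle, sample 2666 stood apart for all 4 of the most abundant members, at 739 CPM for ENSBTAG00000017121, 313 CPM for ENSBTAG00000007273, 293 CPM for ENSBTAG00000017280 and 205 CPM for ENSBTAG00000022120, where the other 3 samples reached at most 97.2, 36.7, 78.0 and 27.4 CPM. In low RFI heifer muscle, sample 2724 stood apart at 193 CPM for ENSBTAG00000017121 and 77.5 CPM for ENSBTAG00000007273, with the other 4 at most at 70.3 and 18.6 CPM. In high RFI bull muscle, M65 had 49.5 CPM of ENSBTAG00000018137, against 11.7 to 16.2 CPM.

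In high RFI bull liver, bull 68 had 1145 CPM of ENSBTAG00000015505 (84.6 to 348 CPM in the other 4), bull 2701 had 308 CPM of ENSBTAG00000003718 (169 to 206 CPM), and the 146 genes summed to 275201 CPM in bull 2641 (240573 to 250390 CPM). In high RFI heifer liver, 2705 had 22884 CPM of ENSBTAG00000007273, below the 27086 to 27552 CPM of the other 3.

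The members were also read in 4 libraries labelled bull muscle that no main comparison used. They took 24.1% of the reads in M12, 26.6% in M6, 23.9% in 2712 and 13.5% in M74, against 0.346 to 0.626% in the 6 other bull muscles.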

How the results depend on the processing

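Tried were scaling by library size only or by median ratios, pseudocounts of 0.1 and 5 CPM, dropping the filter, a minimum of 10 reads per sample, all labelled samples, and leaving out each sample. A count test on recovered reads was not run. Leaving out 1 sample gave 0 to 7 genes and 0 to 1 members called in bull liver, 0 to 2 genes in heifer liver, 0 to 1 genes in both sexes, and 0 to 4 genes and 0 to 1 members in the interaction. The 7, the 4 and the 1 member, *HSPA5*, came without low RFI bull 2713 (*HSPA5* 1.56 in bulls and -2.15 in the interaction). With all 10 heifer livers the members' median difference was -0.65 on the log2 scale, with all 20 livers -0.31, and in the interaction -0.67, and no member was called. Library size only moved it to -0.29 in heifer muscle, where the median of all genes moved from 0.01 to -0.24. Between heifer liver and bull muscle, the median was 3.91 with library size only, 3.49 with 5 CPM and 1.76 with all 20 samples, which called 1149 genes in place of 3995. Of the genes called, 49.1% were higher in liver, and 59.6% with library size only. The causes were not tested, apart from the samples added or left out. Without bull muscles 2666 and 2723, a setting chosen after seeing the data, 128 rather than 129 genes were at least 8 times higher in liver. No paired analysis was possible because the groups compared share no animal and the numbers of the samples only follow their order. Groups of 3 to 5 limit what could be detected.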
